A study of Arabidopsis thaliana with 4 samples.

Results

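The leaf cuticle was followed through 43 genes of wax, cutin and surface lipid transport in RNA from the first leaf of Arabidopsis thaliana. They were chosen by locus as genes of fatty acid elongation, wax and cutin synthesis, export and lipid transfer, with their transcription factors, and all 43 were among the 34133 loci of the deposited files. One group was the inbred accession named Ak-1 in the sample titles, and the other was the hybrid Col-0×Ak-1, a cross with the accession from which the reference genome was made. Each group had 2 libraries from plants aged 14 days on Murashige and Skoog medium that held sucrose. The same inbred parent is called Aa-0 in the genotype label and Ak-0 in the design text, and no label says whether a replicate is a separate plant or pool. P-values therefore cover the spread of these libraries alone, and it could be technical. Col-0 itself was not analysed here.

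The cuticle is a lipid layer over the epidermis that limits water loss. In background terms, its waxes are made when fatty acids are lengthened in the endoplasmic reticulum to very long chains, which are then turned into alkanes, alcohols and esters. Cutin is a polyester of hydroxylated fatty acids joined to glycerol. Both leave the cell through ABC transporters, with lipid transfer proteins thought to help carry lipids to the surface. MYB and AP2/ERF transcription factors set the level of these genes, and abscisic acid and drought raise wax synthesis.

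Values are FPKM, fragment numbers that the authors scaled for transcript length and library size. The total depth is unknown. Relative depth was estimated from the commonest ratio between libraries among loci of low value, which differences in expression can also move. By this estimate Ak-1 replicate 2 had 1.13 times the depth of Ak-1 replicate 1. Hybrid replicate 1 had 1.35 times and hybrid replicate 2 had 1.17 times that depth. The hybrid libraries were less alike than the Ak-1 libraries, with Pearson's r of log2(FPKM + 1) across 15905 loci of 0.968 and 0.990. Across the 35 members that passed the filter on low values r was 0.972 and 0.988. Mesophyll markers were high in every library and the shoot apex genes WUS and CLV3 were listed at 0 in all of them. The 3 epidermal regulators and markers ATML1, PDF2 and PDF1 summed to 32.5 and 33.9 FPKM in Ak-1 leaves and 27.4 in each hybrid library.

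Among the 43 members MYB96 was the 1 whose level passed the test, and it was lower in the hybrid. MYB96 (AT5G62470) is an abscisic acid-induced R2R3-MYB factor that activates wax synthesis in drought. Its level was 38.3 and 52.0 FPKM in Ak-1 leaves but 9.05 and 9.80 FPKM in hybrid leaves. Both hybrid libraries lay far below both Ak-1 libraries. The mean ± SD over 2 libraries fell from 45.1 ± 9.71 to 9.43 ± 0.530 FPKM, so that the Ak-1 mean was 4.79 times the hybrid mean. On the log2(FPKM + 1) scale, which understates the change of low genes, the difference was −2.13 (SE 0.19, limma adjusted p = 0.00924 over 15905 loci). Without Ak-1 replicate 1 the adjusted p was 0.0892 and without Ak-1 replicate 2 it was 0.128. Over all 11 alternatives it ran from 0.00921 to 0.128, and the difference from −2.35 to −1.91. In whole-leaf RNA, fewer cells of a type and less RNA per cell cannot be told apart.

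Of the 43 members 35 had a mean of at least 1 FPKM and were tested. The members were chosen with earlier results of these data known, so their counts are a description and not independent support. With limma 1 was called lower and 0 higher at an adjusted p under 0.05, while 2.51% of all tested loci were called lower and 1.62% higher. At an unadjusted p under 0.05, 7 members were lower and 1 was higher, against 12.6% and 7.61% of all tested loci. Among the 35, GPAT6 and LTP2 passed the filter only through their Ak-1 values, and LTP2 is among the 7 lower members. The median log2 difference over the 35 was −0.16, and over all tested loci it was −0.06. The hybrid lay below Ak-1 in both libraries without overlap for 17 of the 35 members and above for 2, against 32.6% and 20.5% of all tested loci. GPAT6 and LTP2 are both among the 17.

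**Figure D1:**
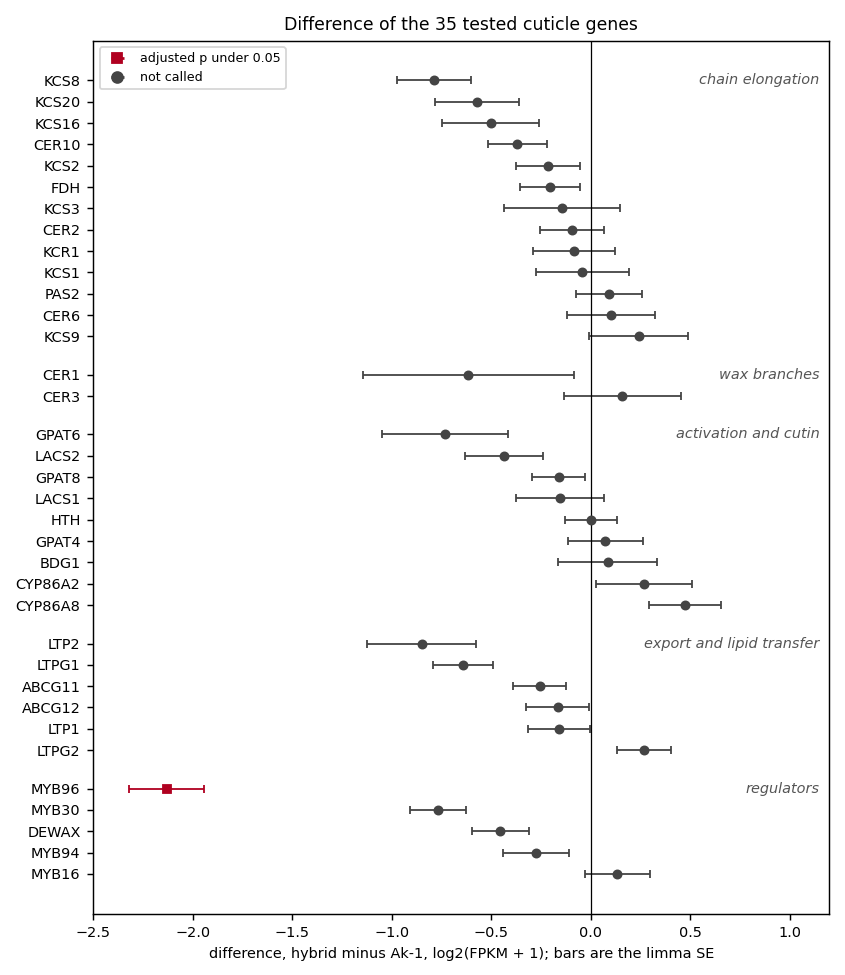
Difference between hybrid and Ak-1 on the log2(FPKM + 1) scale for the 35 tested cuticle genes, grouped by role, with bars giving the limma SE and n = 2 libraries per group. MYB96 at −2.13 is the 1 called gene (square), and the other 34 lie between −0.85 (LTP2) and 0.47 (CYP86A8).

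The other regulators of wax synthesis showed smaller differences. MYB94 (AT3G47600), the closest relative of MYB96 and also an activator of wax genes, had 7.10 and 5.55 FPKM in Ak-1 leaves and 4.78 and 5.28 in hybrid leaves. Its groups lay side by side without overlap, and the difference of −0.27 (SE 0.17, limma adjusted p = 0.432) did not pass the test. Within each library, free of any scaling between libraries, the MYB96 level was 5.39 and 9.37 times the MYB94 level in Ak-1 leaves and 1.89 and 1.86 times in hybrid leaves. The ratio of these relatives did not overlap between the groups. Reads of Ak-1 and Col-0 alleles may map unequally to the Col-0 reference. Such a difference would remain in this ratio and in the other group comparisons here, and it was not tested.

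MYB30 (AT3G28910), an activator of very-long-chain fatty acid genes in the defence response, had 6.40 and 5.97 FPKM in Ak-1 leaves and 3.35 and 3.09 in hybrid leaves. Its difference of −0.77 (SE 0.14) just missed the threshold with a limma adjusted p of 0.0543, and it missed it under all 10 alternatives in which it was tested. DEWAX (AT5G61590), an ERF factor that represses wax genes in the dark, had 39.5 and 39.4 FPKM in Ak-1 leaves against 30.6 and 26.6 in hybrid leaves (log2 difference −0.45, limma adjusted p = 0.172). So the activators MYB96, MYB94 and MYB30 and the repressor DEWAX all had lower values in both hybrid libraries, of which the fall of MYB96 alone was called. They are 4 of the 5 tested regulators, where 32.6% of all tested loci lay below Ak-1 without overlap.

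MYB16 (AT5G15310), a factor of epidermal cell shape and cutin, had 9.31 and 9.06 FPKM in Ak-1 leaves and 11.6 and 8.96 in hybrid leaves, so its groups overlapped. Its relative MYB106 (AT3G01140) was near 0, at 0.04 and 0.07 FPKM in Ak-1 and 0.44 in each hybrid library. It was below the filter, and when all loci above 0 were tested it was the 1 member called higher (log2 difference 0.45, limma adjusted p = 0.0481). MYB106 is overlapped over 80.3% of its length by a locus on the opposite strand, and the library kit does not mark strand, so reads of the pair cannot be assigned to either locus. The SHN factors, AP2 proteins known to activate cutin and wax genes when overexpressed, were scarcely seen. SHN1 (AT1G15360) was listed at 0 in all libraries, and SHN2 (AT5G11190) and SHN3 (AT5G25390) had at most 0.12 FPKM.

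**Figure D2:**
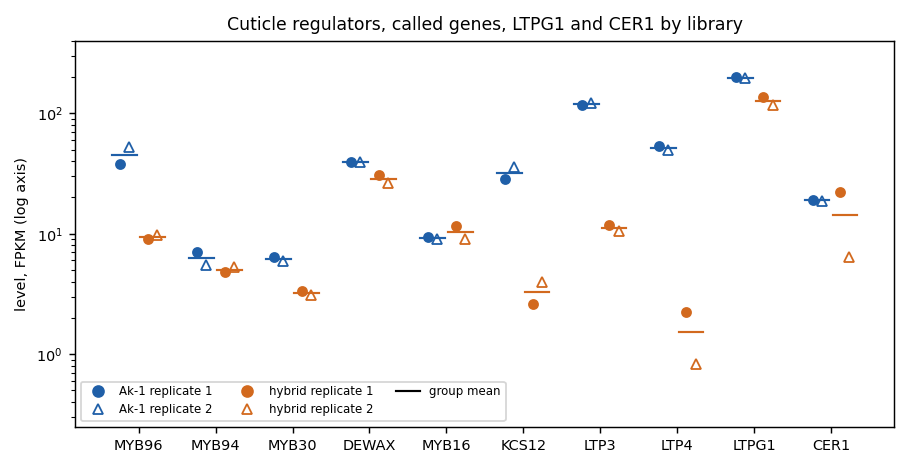
FPKM on a log axis in each of the 4 libraries (points) with group means (lines) for 5 cuticle regulators, the 3 called genes KCS12, LTP3 and LTP4, and LTPG1 and CER1. MYB96, KCS12, LTP3 and LTP4 separate the groups widely, and CER1 differs mainly between the hybrid libraries, at 22.2 and 6.37 FPKM.

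The promoters of MYB96 and of its closest relative were compared, because MYB96 fell and MYB94 was not called. Sequences are from the RefSeq genome of build TAIR10.1, in the Col-0 accession, and cover the 250 bases before each annotated gene start. The L1 box, an element bound by epidermal HD-ZIP IV factors such as ATML1 and PDF2, was searched as TAAATGCA or TAAATGTA on both strands. It was found in 5 of 43 member promoters (11.6%), those of MYB96, MYB94, FDH, ABCG11 and KCS9, and in 4.49% of 27443 promoters of protein-coding nuclear genes. Among the 27 other cuticle genes described below, 2 had it (CER26 and LACS9). In MYB96 and MYB94 it lies in a stretch of 50 bases that is identical at 47, shown here at chr5:25081142-25081191 and chr3:17541449-17541498, both on the minus strand, with the box in capitals. The ends of the stretch were set after the sequences were seen.
MYB96: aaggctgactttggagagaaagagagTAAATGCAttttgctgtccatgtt
MYB94: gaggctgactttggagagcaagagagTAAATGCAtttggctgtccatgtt
The box starts 24 bases before the annotated gene start in MYB96 and 165 bases before it in MYB94. The match of letters is a description of the reference sequence, and the Ak-1 alleles were not read.

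The whole window of MYB96 (chr5:25081142-25081391, minus strand) and that of ABCG11 (chr1:6142152-6142401, plus strand), the 1 member promoter with more than 1 match, are shown with L1 boxes in capitals.
MYB96 promoter: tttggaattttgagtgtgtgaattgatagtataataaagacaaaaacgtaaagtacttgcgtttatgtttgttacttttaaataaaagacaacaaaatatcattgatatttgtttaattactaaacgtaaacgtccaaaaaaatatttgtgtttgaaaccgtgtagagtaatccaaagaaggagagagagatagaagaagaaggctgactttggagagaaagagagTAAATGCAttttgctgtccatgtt
ABCG11 promoter: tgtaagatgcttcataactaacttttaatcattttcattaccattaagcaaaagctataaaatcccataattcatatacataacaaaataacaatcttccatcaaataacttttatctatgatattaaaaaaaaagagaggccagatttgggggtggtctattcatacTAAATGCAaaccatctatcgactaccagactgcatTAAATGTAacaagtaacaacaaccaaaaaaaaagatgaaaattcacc
In ABCG11 the boxes start 82 and 47 bases before the gene start, in FDH 54 and in KCS9 76. Of these 5 genes MYB96 was called lower, and FDH, ABCG11 and MYB94 had lower values in both hybrid libraries without a call. KCS9 had overlapping groups. Of all tested loci 32.6% lay below Ak-1 without overlap. The GCC box GCCGCC, a site of ERF factors, was found in the promoter of GPAT6 alone among the members, and in 1.87% of all promoters. The abscisic acid response element, searched as ACGTGGC or ACGTGTC after the values were known, was in the promoters of CER6, CER2 and CER4 (6.98% of members, 6.39% of all promoters).

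All 13 genes of fatty acid elongation passed the filter on low values, and none was called by limma. At an unadjusted p under 0.05, 2 were lower and 0 higher, where 12.6% and 7.61% of all tested loci were. CER6 (AT1G68530), the main condensing enzyme of wax elongation in shoots, had 207 and 238 FPKM in Ak-1 leaves and 198.5 and 285 in hybrid leaves, with the hybrid libraries on either side of the Ak-1 pair. FDH (AT2G26250), a condensing enzyme family member needed to keep leaf surfaces from fusing, had 97.2 and 96.8 FPKM in Ak-1 leaves and 77.6 and 91.0 in hybrid leaves (log2 difference −0.20, SE 0.15, limma adjusted p = 0.516). The groups of FDH did not overlap, but the hybrid libraries differed more from each other than the nearer of them from Ak-1.

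KCS8 (AT2G15090), a condensing enzyme of low level, had the smallest p of the elongation genes. It had 3.66 and 3.23 FPKM in Ak-1 leaves and 1.29 and 1.89 in hybrid leaves, a difference of −0.79 (SE 0.19, limma adjusted p = 0.102). Of its exon 50-mers 4.25% also occur elsewhere in the genome, so a small part of its reads could be shared. KCS20 (AT5G43760), which acts with KCS2 in making very long chains, had 32.4 and 42.8 FPKM in Ak-1 leaves and 21.7 and 28.3 in hybrid leaves, with a difference of −0.57 (limma adjusted p = 0.226). KCS2 (AT1G04220) itself had between 5.08 and 7.04 FPKM and is overlapped over 74.5% of its length by a locus on the opposite strand.

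The balance among the 9 condensing enzymes (CER6, FDH, KCS1 at AT1G01120, KCS2, KCS3 at AT1G07720, KCS8, KCS9, KCS16 and KCS20) was compared within each library as a share of their summed FPKM, which was 429 and 475 in Ak-1 leaves and 369 and 519 in hybrid leaves. CER6 made up 48.2% and 50.1% of that sum in Ak-1 leaves and 53.8% and 54.9% in hybrid leaves. KCS20 made up 7.56% and 9.01% in Ak-1 leaves and 5.87% and 5.44% in hybrid leaves. The groups did not overlap in either share, nor in those of 4 further enzymes, so that 6 of the 9 separated. For comparison, the levels of 32.6% of all tested loci lay below and 20.5% above Ak-1 without overlap. The shares are parts of 1 sum, so a higher share of CER6 lowers the others, and they are not separate results. The shares of KCS8, KCS2 and KCS16 were lower in the hybrid, as was that of KCS20, and KCS9 had a higher share, with 6.71% and 5.6% in Ak-1 leaves and 6.99% and 8.04% in hybrid leaves. KCS8 made up less than any other, at 0.854% and 0.680% against 0.350% and 0.364%. The share of FDH overlapped between the groups. KCS1, with 20.7 and 22.7 FPKM in Ak-1 leaves and 16.7 and 26.2 in hybrid leaves, had overlapping shares, as did KCS3, with 22.6 and 28.6 against 17.2 and 30.4 FPKM.

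Of the enzymes that finish each elongation cycle, KCR1 and PAS2 had overlapping groups, and CER10 was below Ak-1 in both hybrid libraries without a call. KCR1 (AT1G67730), the ketoacyl reductase, had 35.01 and 30.6 FPKM in Ak-1 leaves and 26.01 and 36.6 in hybrid leaves, and PAS2 (AT5G10480), the dehydratase, 22.5 and 18.9 against 20.3 and 24.03. CER10 (AT3G55360), the enoyl reductase, had 28.7 and 24.4 FPKM in Ak-1 leaves and 19.6 and 21.04 in hybrid leaves (log2 difference −0.37, SE 0.15, limma adjusted p = 0.259). CER2 (AT4G24510), which helps CER6 to make the longest chains, had between 16.2 and 20.3 FPKM in the 4 libraries. KCS16 (AT4G34250), an elongase of leaf surface waxes, had 9.99 and 9.40 FPKM in Ak-1 leaves and 4.99 and 8.51 in hybrid leaves, and KCS9 (AT2G16280), a condensing enzyme, had 28.8 and 26.6 against 25.8 and 41.8. For KCR1, KCS16 and KCS9 the hybrid libraries differed by 0.48, 0.67 and 0.67 on the log2(FPKM + 1) scale, more than the groups did.

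**Figure D3:**
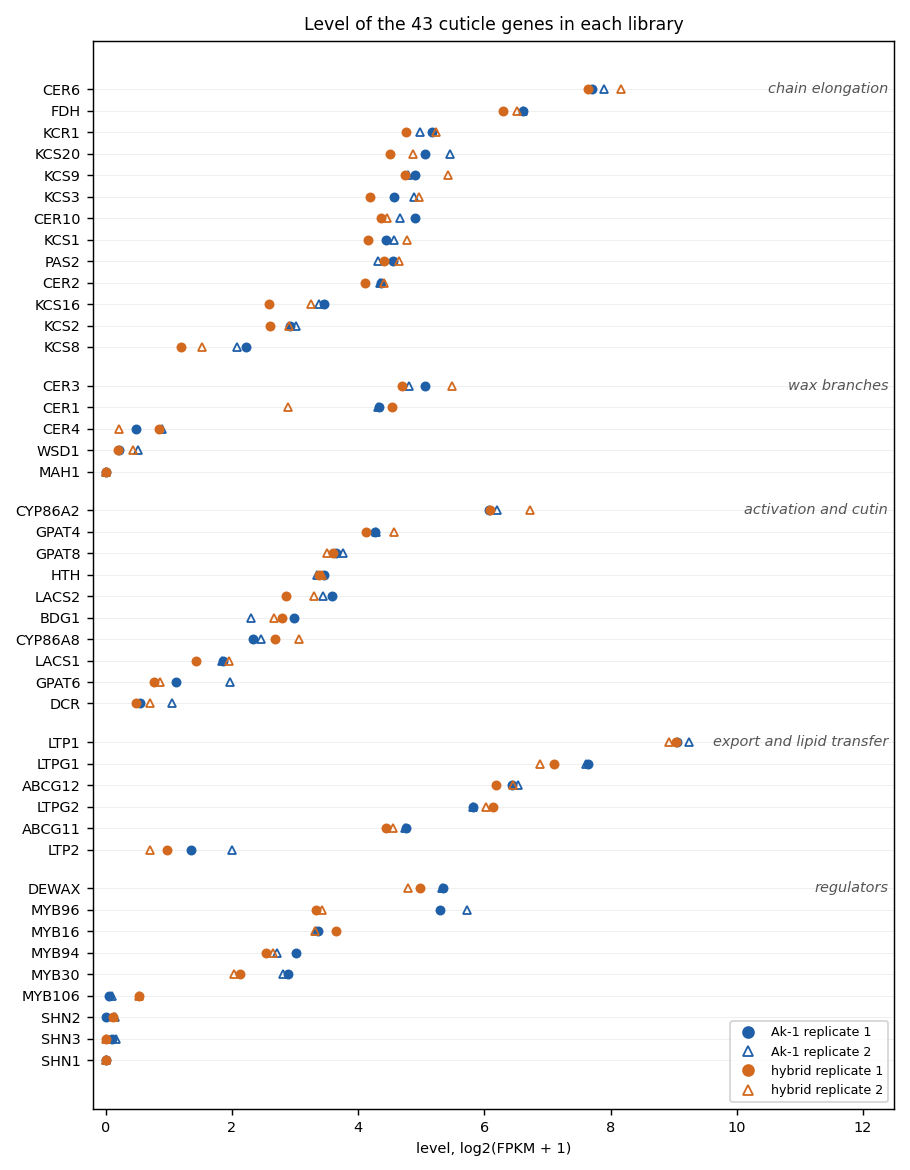
Level of each of the 43 cuticle genes as log2(FPKM + 1) in the 4 libraries, grouped by role and ordered by mean level within a role. LTP1, CER6 and LTPG1 have a mean of at least 100 FPKM, and the SHN factors, MYB106, WSD1 and MAH1 lie at or near 0.

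CER1 (AT1G02205) and CER3, which together make the alkanes of the wax, behaved differently in the hybrid libraries. CER1 had 19.2 and 18.8 FPKM in Ak-1, and 22.2 in hybrid replicate 1 but 6.37 in hybrid replicate 2. CER3 (AT5G57800) had 32.4 and 26.9 FPKM in Ak-1 leaves and 24.8 and 44.0 in the same hybrid libraries. In hybrid replicate 2 alone, CER1 was low and CER3 high. That library also exceeded hybrid replicate 1 in 25 of the 35 tested members and 55.9% of all tested loci. Within a library the CER1 level was 0.594 and 0.701 times that of CER3 in Ak-1, and 0.896 and 0.145 times in the hybrid libraries.

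The group difference of CER1 was −0.61 (SE 0.53, limma adjusted p = 0.584). It was −1.44 without hybrid replicate 1, in a fit whose residual spread comes from the Ak-1 pair alone. It was positive, at 0.21, without hybrid replicate 2. These values are the ends of its range over 11 alternatives. CER1 was the 1 member of the 35 whose hybrid libraries differed by over 1 on the log2(FPKM + 1) scale, against 4.01% of all tested loci, and no member did so in Ak-1 (0.314% of loci). The mean of the hybrid pair for CER1, 14.3 ± 11.2 FPKM, thus joins values on opposite sides of Ak-1.

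The branches to alcohols, esters and ketones were little expressed in these leaves. CER4 (AT4G33790), the fatty acyl-CoA reductase for primary alcohols, had 0.40 and 0.86 FPKM in Ak-1 leaves and 0.80 and 0.15 in hybrid leaves. WSD1 (AT5G37300), the wax ester synthase, had at most 0.43 FPKM, and MAH1 (AT1G57750), the hydroxylase that makes secondary alcohols and ketones in stems, was listed at 0 in all libraries. These genes were under the filter and were not tested.

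Hybrid replicate 2 exceeded hybrid replicate 1 in 25 of the 35 tested members, including all 13 elongation genes, while it did so in 55.9% of all tested loci. The median over the 35 was −0.32 for hybrid replicate 1 and −0.07 for hybrid replicate 2, each minus the Ak-1 mean, and over all loci −0.08 and −0.03. Of the members 9 differed by over 0.5 between the hybrid libraries (CER6, KCS1, KCS3, KCS9, KCS16, CER1, CER3, LACS1 and CYP86A2), against 20% of all tested loci. In Ak-1 only GPAT6, BDG1 and LTP2 did, against 6.68% of loci. Of the epidermal genes, PDF1 had 2.2 FPKM in hybrid replicate 1 and 3.79 in hybrid replicate 2, while ATML1 had 12.7 and 12.1 and PDF2 12.6 and 11.5, and the part of epidermal cells in this excess was not tested.

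**Figure D4:**
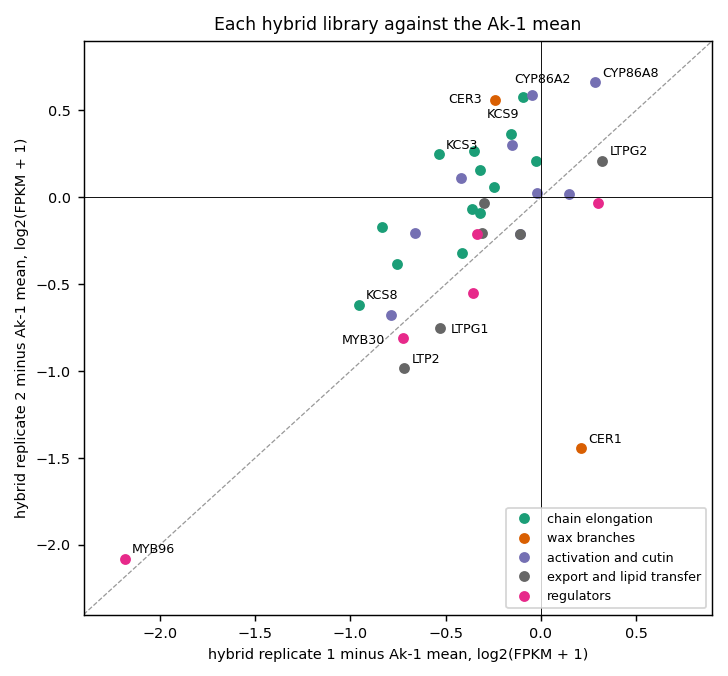
Each hybrid library minus the Ak-1 mean on the log2(FPKM + 1) scale for the 35 tested cuticle genes, coloured by role; the dashed line marks equal values in the hybrid libraries. MYB96 lies near the line at −2.18 and −2.08, the elongation genes lie above it, and CER1 lies far below it at 0.21 and −1.44.

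Genes of fatty acid activation and cutin synthesis showed no call among the 9 of 10 tested with limma, with 1 higher and 0 lower at an unadjusted p under 0.05 (7.61% and 12.6% of all tested loci). That gene was CYP86A8 (AT2G45970), a fatty acid omega-hydroxylase also known as LACERATA, with 4.03 and 4.51 FPKM in Ak-1 leaves and 5.42 and 7.32 in hybrid leaves. Both hybrid libraries were above Ak-1, with a difference of 0.47 (SE 0.18, limma adjusted p = 0.237). CYP86A2 (AT4G00360), a related hydroxylase of leaf cutin, was far more abundant, with 66.1 and 72.9 FPKM in Ak-1 leaves and 67.1 and 105 in hybrid leaves. It is overlapped over 32.8% of its length by a locus on the opposite strand.

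GPAT4 (AT1G01610) and GPAT8 (AT4G00400), glycerol acyltransferases that act together in leaf cutin, had 18.2 and 18.4 FPKM in Ak-1 leaves and 16.3 and 22.8 in hybrid leaves for GPAT4, and between 10.3 and 12.6 for GPAT8. GPAT6 (AT2G38110), best known from flower cutin, was low, at 1.16 and 2.93 FPKM in Ak-1 leaves and 0.69 and 0.82 in hybrid leaves (log2 difference −0.73, SE 0.32, limma adjusted p = 0.287). LACS2 (AT1G49430), the acyl-CoA synthetase of cutin, had 10.97 and 9.90 FPKM in Ak-1 leaves and 6.22 and 8.90 in hybrid leaves, without overlap and without a call (adjusted p = 0.300). LACS1 (AT2G47240), its counterpart in wax synthesis, had between 1.70 and 2.89 FPKM with overlapping groups. HTH (AT1G72970), an oxidoreductase needed to keep flower organs apart, had between 9.19 and 9.99 FPKM in all libraries, and its difference was 0.0015 (SE 0.13). BDG1 (AT1G64670), an extracellular hydrolase, had 6.87 and 3.94 FPKM in Ak-1 leaves and 5.92 and 5.32 in hybrid leaves. DCR (AT5G23940), an acyltransferase of cutin, stayed between 0.39 and 1.06 FPKM and was not tested.

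Export and lipid transfer genes included the most abundant cuticle transcript. LTP1 (AT2G38540), an epidermal lipid transfer protein, had 530 and 602 FPKM in Ak-1 leaves and 524 and 488 in hybrid leaves, a level above that of 99.1% of tested loci. Its groups did not overlap, but the difference of −0.16 (SE 0.15, limma adjusted p = 0.629) did not pass the test. LTP2 (AT2G38530), encoded beside it, had a small fraction of that level, at 1.56 and 3.01 FPKM in Ak-1 leaves and 0.95 and 0.62 in hybrid leaves (log2 difference −0.85, SE 0.27, limma adjusted p = 0.180).

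LTPG1 and LTPG2 are lipid transfer proteins anchored to the plasma membrane that take part in wax export. LTPG1 (AT1G27950) had 199 and 194 FPKM in Ak-1 leaves and 136 and 116 in hybrid leaves. LTPG2 (AT3G43720) had 55.3 FPKM in each Ak-1 library and 69.4 and 64.1 in the hybrid. They lay on opposite sides, LTPG1 below and LTPG2 above Ak-1 in both hybrid libraries, and neither was called. For LTPG1 the difference was −0.64 (SE 0.15, limma adjusted p = 0.101), for LTPG2 0.27 (SE 0.14, limma adjusted p = 0.355). Over its 11 alternatives the difference of LTPG1 ran from −0.75, without hybrid replicate 1, to −0.53. A fit without a hybrid replicate takes its residual spread from the Ak-1 pair alone. Within a library the level of LTPG1 was 3.6 and 3.51 times that of LTPG2 in Ak-1, and 1.96 and 1.82 times in the hybrid.

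Neither transporter was called. ABCG12 (AT1G51500), the ABC transporter of wax, had 85.5 and 91.9 FPKM in Ak-1 leaves and 71.8 and 86.7 in hybrid leaves. ABCG11 (AT1G17840), which exports wax and cutin and can pair with ABCG12, had 26.2 and 25.7 FPKM against 20.8 and 22.4 (log2 difference −0.26, SE 0.13, limma adjusted p = 0.360). The ratio of ABCG12 to ABCG11 overlapped between the groups, at 3.27 and 3.57 in Ak-1 leaves and 3.45 and 3.88 in hybrid leaves.

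**Figure D5:**
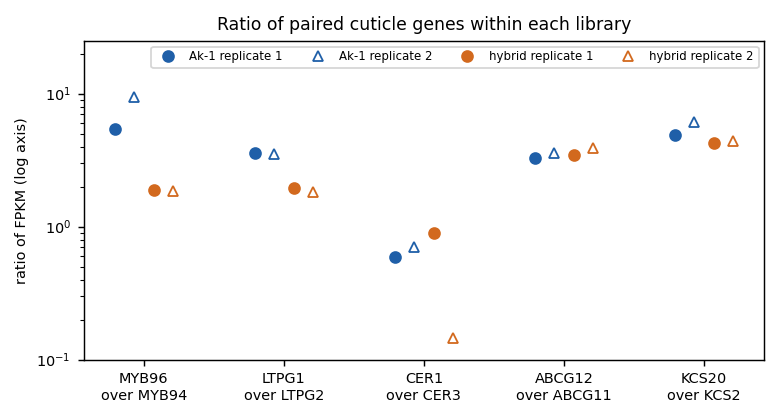
Ratio of the FPKM of paired cuticle genes within each of the 4 libraries, on a log axis. The ratios of MYB96 to MYB94 and of LTPG1 to LTPG2 are lower in both hybrid libraries than in both Ak-1 libraries, the ratio of ABCG12 to ABCG11 overlaps, and that of CER1 to CER3 is 0.896 and 0.145 in the hybrid libraries.

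Another 27 genes of cuticle lipid metabolism outside the 43 were examined, of which 21 were tested. This list was chosen with earlier results of these data known, so its counts are a description and not independent support. With limma 3 were lower and 0 higher, against 2.51% and 1.62% of all tested loci. At an unadjusted p under 0.05, 5 were lower and 0 higher, against 12.6% and 7.61%, and 1 of the 5, LTL1, passed the filter only through its Ak-1 values. The median log2 difference of the 21 was −0.13, beside −0.06 over all tested loci. KCS12 (AT2G28630), a condensing enzyme family member, fell from 28.5 and 35.5 FPKM in Ak-1 to 2.60 and 3.99 in the hybrid (log2 difference −2.95, SE 0.22, limma adjusted p = 0.00707). It was the 1 condensing enzyme gene, among the members and these others, that was called, and its level in Ak-1 was within the range of KCS9 and KCS20.

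The other falls were in the neighbouring lipid transfer genes LTP3 and LTP4, with log2 differences of −3.30 and −4.43. None of the exon 50-mers of KCS12, LTP3 or LTP4 occurred elsewhere in the genome. LTP5 and LTP6, further lipid transfer proteins, were not called: LTP5 had 175 and 159 FPKM in Ak-1 leaves and 135 and 139 in hybrid leaves, and LTP6 had 3.71 and 4.30 against 2.14 and 1.05. These 3 calls did not hold in every fit with 1 replicate left out. Such a fit leaves 1 library in a group, and its calls changed widely over all tested loci as well.

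Some values of other cell types moved with the groups, and their part in the cuticle results was not tested. The 3 epidermal genes were lower in both hybrid libraries, PDF1 most, at 5.58 and 6.02 FPKM against 2.2 and 3.79 (limma adjusted p = 0.145). For ATML1 and PDF2 the limma adjusted p was 0.636 and 0.518. Of all tested loci 32.6% lay below and 20.5% above Ak-1 without overlap. The 3 vascular markers SUC2, APL and ATHB8 summed to 170 and 196 FPKM in Ak-1 and 229 in each hybrid library, with no call. Guard cell markers summed to 31.6 and 31.7 FPKM in Ak-1 leaves and 32.5 and 36.7 in hybrid leaves. Among these markers MYB60 was above and KAT1 below Ak-1 in both hybrid libraries, without a call. The 4 trichome genes summed to 0.34 and 0.66 FPKM in Ak-1 leaves and 1.64 and 1.26 in hybrid leaves, with GL3 at 0. ETC2 and GL2 were above Ak-1 in both hybrid libraries. GL1 had 0 and 0.08 FPKM in Ak-1 leaves and 0 in each hybrid library. None of the trichome genes reached the filter. Among 7 root suberin genes, GPAT5, CYP86A1, CYP86B1, FAR4 and FAR5 had at most 0.19 FPKM in any library, while FAR1 had 7.73 and 6.39 FPKM in Ak-1 leaves and 2.51 and 0.59 in hybrid leaves (limma adjusted p = 0.0869). ASFT had 5.01 and 5.50 against 3.2 and 0.72 FPKM (limma adjusted p = 0.206), so that both lay lower in the hybrid libraries without a call. FAR1 is overlapped over 34.4% of its length by a locus on the opposite strand. The 18S ribosomal RNA locus AT3G41768 had 10547 and 7145 FPKM in Ak-1 leaves and 1670 and 4446 in hybrid leaves.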

How the data were processed

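Each of the 4 deposited files holds 1 FPKM value per locus, calculated by the authors and rounded to 2 decimals. The submitters' processing notes name TopHat2 2.0.8b, Cufflinks 2.0.2, edgeR 3.12.0 and the build TAIR10; the step each tool served, and the handling of multiply mapping reads, are not given in the sources used here. Per the labels' protocols, libraries were made with the Illumina TruSeq RNA kit V2. From these values, limma 3.58.1 under R 4.3.3 compared the hybrid with Ak-1 (lmFit and a trended eBayes, two-sided, log2 scale with a pseudocount of 1) at loci whose mean reached 1 FPKM, with Benjamini-Hochberg adjustment over 15905 loci and a call under 0.05; 2 residual and 3.18 prior degrees of freedom were used. The procedure was tested on simulated data. No count model was applied, since FPKM are normalized. An exact 0 may be a failed estimate.

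Every member is named, with statistics for called members and the smallest p of each role; members and lists were chosen with earlier results of these data known. Of 31 other cuticle genes, 4 were left out because the reference did not hold the listed symbol. Overlaps, exon 50-mers and promoters came from the RefSeq annotation of TAIR10.1, read with Python 3.11.15. The smallest p of an exact two-sided permutation test of 2 against 2 libraries is 0.333, so none was used.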

Additional observations from a re-analysis of the deposited data

How the results depend on the processing

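The fall of MYB96 was called with a pseudocount of 0.1, no filter, a mean of at least 5 FPKM, median-of-ratios scaling, quantile normalization, no mean-variance trend, the replicate block and without either hybrid replicate; it was not called without either Ak-1 replicate. With no filter 1 member (MYB106) was called higher. Leaving out each replicate in turn gave 0 to 0 members higher, 0 to 3 lower, 0 to 5 other cuticle genes lower, and 3 to 619 loci higher and 1 to 899 lower in all; without an Ak-1 replicate, the hybrid pair is the sole source of the residual spread. With a mean of at least 5 FPKM 92 loci were higher and 206 lower, and with no filter 173 were lower, against 257 and 400 in the reported fit. The median over tested members ran from −0.32 (without hybrid replicate 2) to −0.07 (without hybrid replicate 1), and was −0.10 after median-of-ratios scaling and −0.11 after quantile normalization, when the median of all loci was −0.00067 and 0.02. Median-of-ratios scaling turned the difference of KCS1 to 0.019, and quantile normalization turned those of KCS1 and KCR1 to 0.038 and 0.0067. Leaving out each replicate in turn changed the sign of 15 members. Their log2 differences ran from −0.16 to 0.36 for CER6, −0.35 to 0.27 for KCS1, −0.10 to 0.58 for KCS9, −0.54 to 0.25 for KCS3, −0.25 to 0.061 for CER2, −0.32 to 0.15 for KCR1, −0.026 to 0.21 for PAS2, −1.44 to 0.21 for CER1, −0.24 to 0.56 for CER3, −0.42 to 0.11 for LACS1, −0.047 to 0.59 for CYP86A2, −0.15 to 0.30 for GPAT4, −0.053 to 0.056 for HTH, −0.25 to 0.42 for BDG1 and −0.032 to 0.30 for MYB16. In a fit without a hybrid replicate, such as that with CER1 at −1.44, the Ak-1 pair is the sole source of the residual spread.

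The labels do not say that replicate numbers pair the libraries. Deviations of equal numbers correlated at −0.138 across loci. The replicate block gave 200 loci higher and 365 lower, with 0 members higher and 1 lower. A crossed block, chosen after seeing the data, gave 262 and 439, with the same counts of members.

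The depth is unknown, and no counting interval is given for members near 0 such as MYB106 and CER4.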
